A study of Mus musculus with 2 samples.

Results

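The JAK kinases and STAT factors were examined as 9 genes out of 19937 that a probe set with a single gene symbol named on the arrays: the kinases Jak1, Jak2 and Tyk2 and the factors Stat2, Stat3, Stat4, Stat5a, Stat5b and Stat6. They were chosen by name, as members of the 2 families, and each had 1 probe set. Other members of these families were not analysed here. Langerhans cells, the antigen-presenting cells of the epidermis, came from mice of 2 genotypes, both carrying a LacZ allele of Il34: Il34+/LacZ, with 1 unmodified copy, and Il34LacZ/LacZ, with none. All mice were 8 to 12 weeks old and had received ultraviolet light for 30 min; cells positive for Langerin and Epcam were sorted 21 days later. Each genotype was measured on 1 array. The labels do not state how many animals gave the RNA, and no untreated or Il34+/+ animal was analysed here, so the comparison is between a heterozygous and a homozygous LacZ genotype after ultraviolet exposure.

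Receptors for many cytokines have no enzyme of their own and hold a JAK kinase on the inner face of each chain. When the cytokine draws the chains together, the kinases phosphorylate each other, the receptor tails and then a STAT factor, which pairs up, enters the nucleus and binds DNA; SOCS proteins made in response shut the receptor down. JAK1 serves interferon, IL-6, IL-10 and IL-4 receptors, JAK2 the GM-CSF and interferon gamma receptors, and TYK2 the type I interferon, IL-12 and IL-10 receptors. The IL-34 receptor CSF1R, by contrast, is itself a tyrosine kinase.

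No test is possible with a single array for each genotype, and every difference below is a single measurement without replicate error, in which fewer cells of a type and less RNA per cell cannot be told apart. Differences are log2(intensity + 16), Il34LacZ/LacZ minus Il34+/LacZ. Folds are taken from these differences, so they are smaller than the plain ratio of the 2 readings printed beside them. The only spread in the file is that between probe sets of the same gene, an SD of 0.63 on this scale (1.55-fold, over 614 genes that more than 1 probe set reports). It holds no variation between animals, sorts or RNA labellings, so a gap larger than this SD is not thereby resolved. The floor is the median intensity of all probe sets over both arrays, 48.7, and 12843 genes reached it on at least 1 array. Their median difference was -0.16, and it varied with the level: it was 0.43 in the dimmest of 5 equal groups of genes and -0.64 in the brightest, whose mean intensity is 252 or more. The differences of the members above the floor, most lists and some other genes are therefore also given with this trend removed. That sets a gene against others of its own level. Many receptors, inhibitors and targets below are given as deposited alone. Intensities of different genes are not compared, since probe sets differ in brightness.

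The sort and its other cells were checked by markers. All 8 Langerhans cell markers read above the floor on both arrays, including Cd207, which encodes Langerin, at 3153 and 1852, and their summed intensity was 32275 in Il34+/LacZ and 26479 in Il34LacZ/LacZ. Of 9 measured T and NK cell markers, 7 were above the floor on both arrays, with sums of 7069 and 6369, while the NK cell genes Ncr1 and Klrb1c were below it on both. Keratinocyte markers summed to 4330 and 607 (8 genes), neutrophil markers to 301 and 1518 (7 genes) and monocyte and macrophage markers to 1122 and 2393 (7 genes). B cell and mast cell markers were below the floor on both arrays. T cells, keratinocytes and macrophages also use JAK and STAT genes, and the part of these cells in the differences below was not tested.

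As deposited, all 3 kinases read more than 2-fold lower in Il34LacZ/LacZ, and 1 STAT, Stat5a, read higher. Of the 9 genes, 8 were above the floor on both arrays and Stat4 was below it on both. Genes at least 1.5-fold apart are called lower or higher in Il34LacZ/LacZ. Of the 8, 5 were called lower and none higher, against 29.9% of all 12843 genes lower and 16% higher. With the trend removed, 3 were lower (background 18.6%), which were the 3 kinases, and 1 was higher (background 13.9%). The median difference of the 8 was -0.87, or -0.27 with the trend removed, beside -0.16 and 0.03 over all genes. The shares of all genes depend on how the arrays are scaled: higher genes were 34.8% of those at least 1.5-fold apart as deposited, 19.7% with each array centred on its median, 62.6% with equal upper quartiles and 47.2% after quantile normalization, and the 8 genes then held 6 lower and none higher, 4 lower and 1 higher, and 3 lower and 1 higher, respectively.

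**Figure D1:**
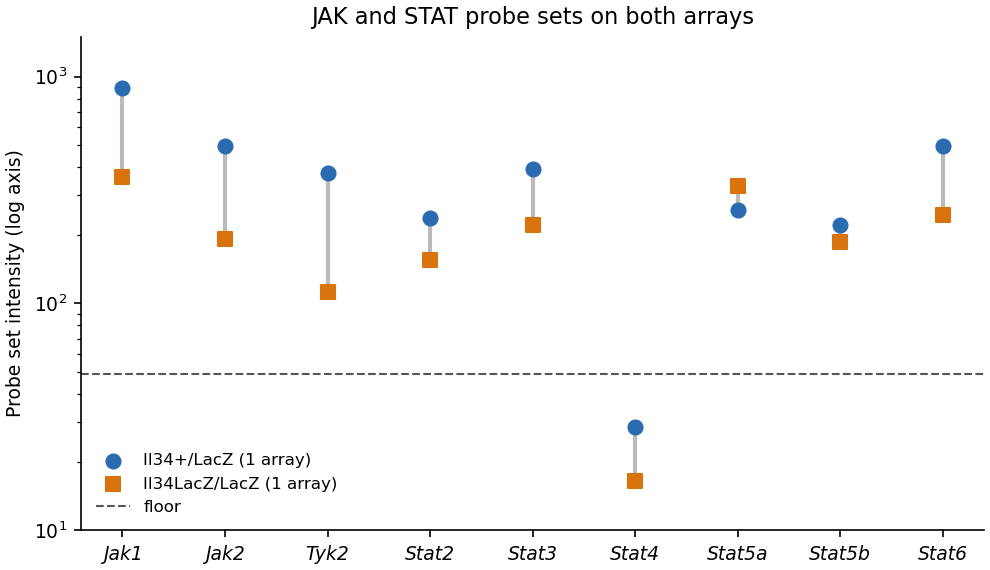
Probe set intensity (log axis) of the 9 genes on the Il34+/LacZ array (circles) and the Il34LacZ/LacZ array (squares), with the floor of 48.7 as a dashed line; each point is 1 array and there are no error bars. The squares of Jak1, Jak2 and Tyk2 lie more than 2-fold below their circles, Stat5a alone has its square above, and Stat4 is under the floor on both arrays.

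Jak1, the kinase shared by the widest range of cytokine receptors, gave intensities of 891 in the heterozygote (Il34+/LacZ) and 359 in the homozygote, 2.42-fold lower; pairs of readings below follow this order. The difference was -1.27, and -0.66 once set against its level. Of the 500 genes nearest in level, whose median difference was -0.61, 43 lay lower than Jak1. Both arrays read it far above the floor, so the difference does not rest on a dim signal.

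Jak2, which transmits GM-CSF, IL-3 and interferon gamma signals, read 496 and 192, 2.46-fold lower. Its difference of -1.30 was close to that of Jak1 (-0.03 between them, where the gap between 2 probe sets has an SD of 0.90), and with the trend removed it was -0.70. Among its 500 neighbours in level, 67 lay lower.

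Tyk2, the partner of the IFNAR1, IL12RB1 and IL10RB chains, differed most. It read 375 and 112, 3.06-fold lower, a difference of -1.61, or -1.11 with the trend removed. Only 20 of its 500 neighbours in level lay lower. The difference of Tyk2 minus that of Jak1 was -0.34, within the 0.90 by which 2 probe sets scatter, so the order among the kinases is not resolved. As deposited, all genes at least 2-fold lower were 13.2% of those measured, and all 3 kinases passed that fold; with the trend removed the share was 7.07% and Tyk2 alone of the kinases passed. The kinases stayed at least 1.5-fold lower in every setting computed: the ranges were -1.42 to -0.74 for Jak1, -1.45 to -0.83 for Jak2 and -1.76 to -1.26 for Tyk2, and -0.68 to -0.61, -0.75 to -0.60 and -1.21 to -0.89 with the trend removed. They lie on chromosomes 4, 19 and 9, so they share no neighbourhood.

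**Figure D2:**
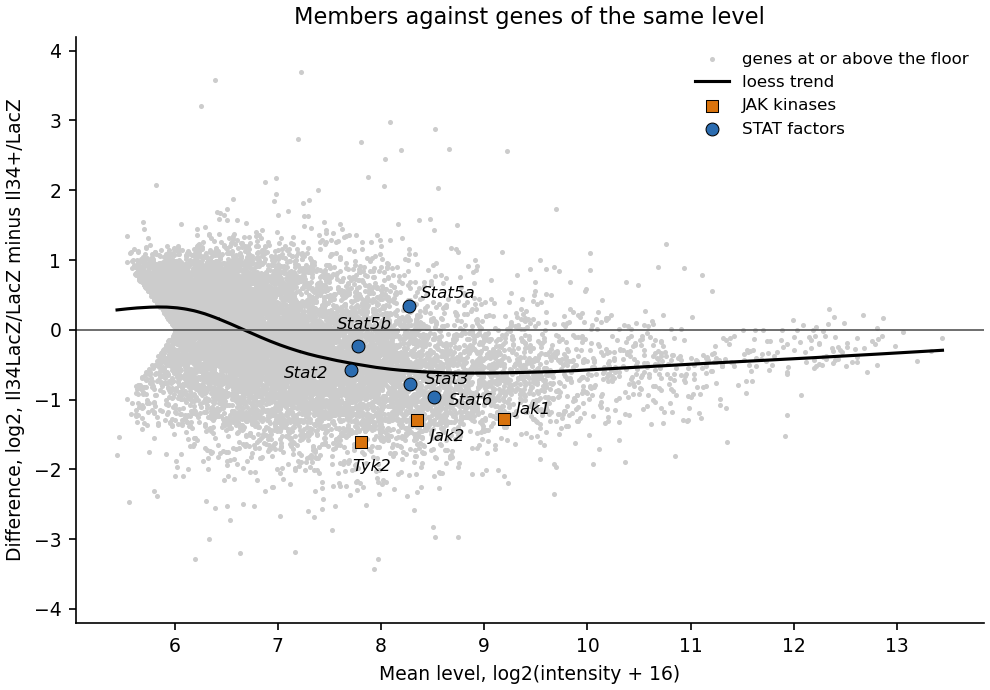
Difference between the arrays (y axis, log2, Il34LacZ/LacZ minus Il34+/LacZ) against the mean level of each gene (x axis, log2(intensity + 16)); grey points are genes at or above the floor, the black line is the loess trend, squares are kinases and circles are STATs. The 3 squares lie -0.66 to -1.11 from the line, Stat5a lies 0.92 above it, and the other 4 STATs lie between -0.35 and 0.26 of it.

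The 5 STATs that reached the floor ran from -0.96 to 0.34 as deposited, all above the kinases. The highest kinase, Jak1, minus the lowest STAT, Stat6, gave -0.32. That is within the scatter of 2 probe sets, so the 2 sets are not resolved from each other. Stat6, the factor of IL-4 and IL-13, read 493 and 246, 1.94-fold lower. With the trend removed its difference was -0.35, and 172 of 500 genes of its level lay lower, so Stat6 was near the middle of its level. Stat3, which carries IL-6 and IL-10 signals, read 392 and 221, 1.72-fold lower. Its difference of -0.78 was -0.19 with the trend removed, and 217 of 500 genes of its level lay lower.

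Stat2, the type I interferon factor that acts with IRF9, read 239 and 156, 1.49-fold lower, just short of the 1.5-fold threshold. It passed that threshold in 2 of 6 alternative settings, so the call depends on the processing. With the trend removed the difference was -0.09, and 235 of 500 genes of its level lay lower. Stat6, Stat3 and Stat2 thus lay in the middle of the genes of their level.

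Stat5a and Stat5b, near-identical factors used by GM-CSF, IL-3 and IL-7, were the highest of the family relative to level. Stat5a read 259 and 331, 1.26-fold higher, a difference of 0.34, and of 0.92 relative to its level. Of its 500 neighbours in level, whose median was -0.68, 465 lay lower. It read higher in each scaling, by 0.19 to 0.83. Stat5b read 221 and 186, a difference of -0.23 that turned to 0.04 with equal upper quartiles and to 0.16 after quantile normalization, and was 0.26 with the trend removed. The gap of 0.57 between Stat5a and Stat5b lay within the 0.90 of 2 probe sets, and whether the probe sets of these similar transcripts share signal was not tested. The gap between Stat5a and Stat3 was 1.12, little more than 1 SD of that scatter, which does not resolve them. Stat5b, Stat5a and Stat3 follow one another on chromosome 11 with no other coding gene between them in RefSeq, so these differing readings came from direct neighbours.

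Stat4, the IL-12 factor of T and NK cells, read 28.6 and 16.5. Both readings were below the floor, so no fold is given.

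Receptor chains, the docking places of the kinases, leaned lower as deposited, as did all genes, and held 5 lower and 5 higher after quantile normalization. Of 39 listed chains, 29 reached the floor. As deposited 11 were called lower and 2 higher (37.9% and 6.90%, beside 29.9% and 16% of all genes), and the median was -0.26. Relative to level 3 were lower and 3 higher, and the median was 0.02. For the common beta receptors, which use JAK2, 3 of 4 were lower, with a median of -1.08 (-0.50 with the trend removed). Csf2rb, the signalling chain of the GM-CSF receptor, read 1715 and 774, 2.19-fold lower, and Csf2rb2, its near-identical mouse copy, 1278 and 410, 3.04-fold lower; whether the pair shares signal was not tested, so neither value is certain. Il3ra, the IL-3 binding chain, read 487 and 230, 2.04-fold lower. Csf2ra, the GM-CSF binding chain, read 544 and 452, a difference of -0.26 that was 0.28 after quantile normalization. Il5ra, the IL-5 binding chain, was below the floor on both arrays.

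In the interferon and IL-10 family, of 8 chains that reached the floor, 4 were called lower and none higher. That is 50% lower, beside 29.9% lower and 16% higher of all genes. Relative to level 1 was lower and 2 higher, beside 18.6% and 13.9% of all genes. Ifnar1 (334 and 156) and Ifnar2 (801 and 366), the chains that hold TYK2 and JAK1 at the type I interferon receptor, read 2.04-fold and 2.14-fold lower, with a gap of 0.07 between them. Ifngr1, the JAK1 chain of the interferon gamma receptor, read 545 and 256, 2.06-fold lower, and its partner Ifngr2, the JAK2 chain, 636 and 911, 1.42-fold higher. Il10ra, the JAK1 chain of the IL-10 receptor, read 908 and 377, 2.35-fold lower, and Il10rb, the TYK2 chain, 357 and 478, a difference of 0.41. With the trend removed Ifnar1 was -0.49, Ifnar2 -0.48, Ifngr1 -0.43, Ifngr2 1.11, Il10ra -0.62 and Il10rb 1.03. The gaps within the Ifngr and Il10r pairs were 1.55 and 1.64, both above the SD of 0.90 for 2 probe sets. They were 1.54 and 1.64 with the trend removed. Of the other pairs compared, Il6st minus Il6ra (1.14) also lay above that SD. Ifnar1 minus Ifnar2 and Csf2ra minus Csf2rb (0.87) lay within it, the latter at 0.94 with the trend removed. A gap above 1 SD does not resolve a pair. Il10rb and the pairs were chosen after the values were seen.

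Il6ra, the IL-6 binding chain, read 965 and 320, 2.92-fold lower, while Il6st, the shared signalling chain gp130, read 617 and 461, a difference of -0.41 that was 0.11 after quantile normalization. Il27ra, a chain for IL-27, read 60.7 and 84.3. The IL-4 and IL-13 chains Il4ra (629 and 287) and Il13ra1 (625 and 289) read 2.13-fold and 2.10-fold lower, and Il2rb, a chain of the IL-2 and IL-15 receptors, 876 and 552, 1.57-fold lower. They were the 3 of 9 chains of the common gamma and IL-4 list past 1.5-fold (33.3%, beside 29.9% of all genes lower). With the trend removed none was lower and 1 higher. Of the 3 IL-12 and IL-23 receptor chains, Il23r read 52.1 and 93.6, 1.61-fold higher, Il12rb1 75 and 115, and Il12rb2 152 and 171. Csf1r, the IL-34 receptor, read 2507 and 1511, 1.65-fold lower, a difference of -0.72, or -0.23 with the trend removed. The receptors of single-chain type were dim: Epor (44.5 and 83.2) was at least 1.53-fold higher and Csf3r (41.8 and 63.5) at least 1.23-fold higher, each under the floor in the heterozygote.

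**Figure D3:**
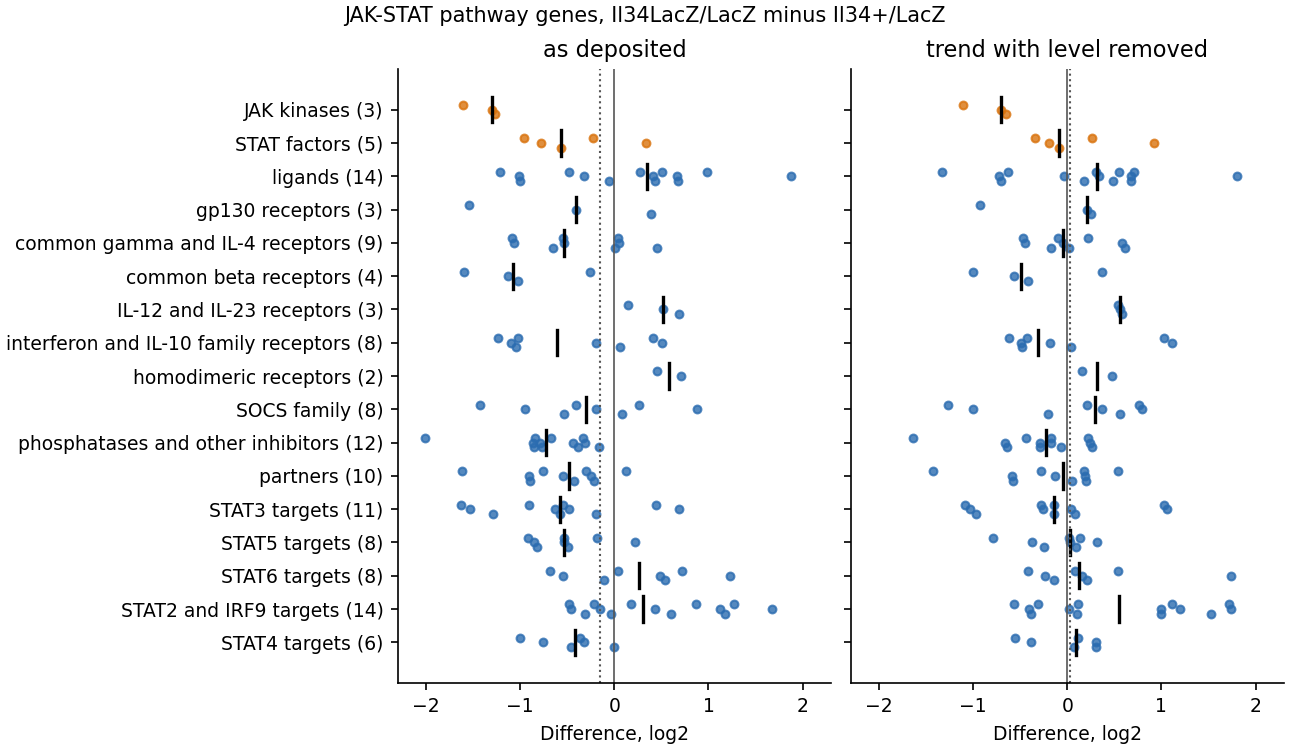
Difference between the arrays (x axis, log2, Il34LacZ/LacZ minus Il34+/LacZ) for genes at or above the floor in each list, with the number of genes in parentheses, as deposited (left) and with the trend with level removed (right). Points are genes, orange for the kinases and STATs, black ticks are list medians, and the dotted line is the median of all 12843 genes; the kinases have the lowest median in both panels, -1.30 and -0.70.

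Most ligands of these receptors were near or below the floor. Of 25 measured ligands, 14 reached the floor, 6 of them on 1 array alone. As deposited 3 were called lower and 4 higher (21.4% and 28.6%, beside 29.9% and 16% of all genes). Of these 7 calls, 4 rest on an array below the floor. Relative to level 4 were lower and 4 higher. Ifnb1, interferon beta, read 33.4 and 165, at least 2.80-fold higher, and Csf3, the G-CSF gene, 18.2 and 51.6, at least 1.04-fold higher. Il13, a STAT6 cytokine, read 317 and 127, 2.33-fold lower, and Ebi3, a chain of IL-27, 218 and 101, 2.01-fold lower. Il15 read 59.6 and 21.6, at least 1.17-fold lower. The interferon gamma gene Ifng, a product of T and NK cells, read 498 and 396, beside the T cell markers above.

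The feedback inhibitors were called at about the shares of all genes. Of 8 SOCS genes, 2 were called lower and 1 higher (25% and 12.5%, beside 29.9% and 16% of all genes). Their median of -0.30 was 0.18 after quantile normalization, and relative to level 2 genes were lower and 2 higher. Socs3, the brake on gp130 receptors, read 674 and 506, a difference of -0.40 that was 0.10 after quantile normalization. Socs1, the brake on interferon receptors, read 186 and 198, and Cish, the STAT5-induced member, 267 and 232; both differences, 0.08 and -0.19, changed sign with the scaling. Socs7 read 284 and 95.7, 2.68-fold lower, and Socs4 75.6 and 31.4, at least 1.42-fold lower. Socs2, a brake on growth hormone receptors, read 49.8 and 105, 1.84-fold higher, but its mean over 2 probe sets differed by 0.23. Socs6 read 167 and 110.

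No phosphatase or other inhibitor was called higher in any scaling. Of 12, 7 were called lower and none higher, and their median was -0.72. That is 58.3% lower, beside 29.9% lower and 16% higher of all genes. With equal upper quartiles, and also after quantile normalization, 3 were lower (25%). Lower genes over the whole array also fell, from 3837 as deposited to 2345 and 2481 in these scalings. Relative to level 3 inhibitors were lower and none higher, beside 18.6% and 13.9% of all genes, and their median was -0.23. Pias1, a SUMO ligase that restrains STATs, was furthest apart of these at 311 and 65.1, 4.03-fold lower, or -1.64 with the trend removed. The JAK phosphatases Ptpn1 (376 and 199) and Ptpn2 (154 and 78.6) were 1.82-fold and 1.79-fold lower, and Ptpn11, the phosphatase SHP2, read 221 and 116, 1.80-fold lower. Sh2b3, the adaptor LNK that holds JAK2 in check, read 542 and 306, 1.73-fold lower. Ptpn1 and Sh2b3 differed by -0.29 and -0.17 with the trend removed, about as other genes of their level.

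Among the 10 partners of STATs that reached the floor, 4 were called lower and none higher, and 2 and none relative to level. As deposited that is 40% lower, beside 29.9% lower and 16% higher of all genes. Irf9, which completes the STAT2 complex on interferon genes, read 205 and 55.8, 3.07-fold lower, or -1.43 with the trend removed. Nmi, a STAT-binding protein, read 189 and 93.5, 1.87-fold lower. The coactivators Crebbp (635 and 333) and Ep300 (647 and 377) were 1.87-fold and 1.69-fold lower, and -0.28 and -0.13 with the trend removed. Stam, an adaptor that binds JAKs, read 103 and 65.5.

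The DNA letters bound by STATs, or by the complex of STAT2 with IRF9, were searched in RefSeq promoter windows. These were of build GRCm38.p6, 250 bases before to 50 after each start. The motifs were the interferon-stimulated element GAAANNGAAA on both strands, the STAT element TTCNNNGAA and the longer-spaced TTCNNNNGAA, both of which read alike on either strand; matches of different motifs may overlap. Of 32851 windows, 3.44% held the first, 8.3% the second and 6.95% the third. All 9 members had at least 1 window, 12 in all. Only Stat2 and 1 of the windows of Stat4 held the interferon element, Stat2 also held TTCNNNNGAA, and none held TTCNNNGAA. A match is a description of letters and not a measured site. The Stat2 window is shown because Stat2 is both a member and a carrier of the element, which is in capitals, 222 bases before the start; the stretch is the 250 bases upstream, chr10:128270248-128270497, plus strand, GRCm38.p6, 5′ to 3′.
Stat2: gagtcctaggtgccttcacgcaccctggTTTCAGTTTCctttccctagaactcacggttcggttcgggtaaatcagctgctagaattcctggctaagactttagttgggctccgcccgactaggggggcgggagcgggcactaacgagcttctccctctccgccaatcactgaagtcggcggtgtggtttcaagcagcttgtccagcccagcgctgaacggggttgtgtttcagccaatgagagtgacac

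A group of STAT2 and IRF9 target genes read higher in Il34LacZ/LacZ, while Stat2 and Irf9 read lower in every scaling. With the trend removed Stat2 was -0.09, in the middle of the genes of its level, and Irf9 was -1.43. Of 14 targets that reached the floor, 6 were called higher and none lower, and their median was 0.31. That is 42.9% higher, beside 16% higher and 29.9% lower of all genes. Of these 6 calls, 2 (Rsad2 and Ifit1) reached the floor on the Il34LacZ/LacZ array alone. The targets Mx1 (37.3 and 35) and Mx2 (22.6 and 23.7) were below it on both arrays and are not counted. The target median ran from 0.11 to 0.87 over the settings computed. Relative to level 7 were higher and none lower, beside 13.9% and 18.6% of all genes, and the target median was 0.55. With each array centred on its median 5 were higher and 2 lower. Rsad2, the antiviral enzyme viperin, read 32.6 and 139, at least 2.40-fold higher, and Ifit1, which binds viral RNA, 40.2 and 111, at least 1.96-fold higher. Oasl1, a 2′-5′ oligoadenylate synthetase-like protein, read 107 and 282, 2.42-fold higher, and its relative Oasl2 83.8 and 166, 1.82-fold higher. Cxcl10, a chemokine for T cells, read 275 and 617, 2.18-fold higher, or 1.74 with the trend removed. Other targets did not share this: Ifit3 read 128 and 108 and Oas2 104 and 102, both named after their values were seen. The summed macrophage and neutrophil markers, given above, were also higher on the Il34LacZ/LacZ array, but not every marker was. Of 7 monocyte and macrophage markers, 3 were called higher and 1, Adgre1 (281 and 145), lower. Of 6 neutrophil markers that reached the floor, 5 were called higher, 3 of them with the heterozygote below the floor. The neutrophil marker Ly6g was below the floor on both arrays (8.51 and 11.5). The part of these cells in the target readings was not tested.

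Of the 15 STAT2 and IRF9 targets with a window, 10 held the interferon element. Both genes that read higher and genes that did not carried it: the element was in the windows of Rsad2, Ifit1 and Cxcl10, and also in those of Ifit3 and Oas3, which differed by -0.22 and -0.46. The windows of Oasl1 and Oasl2, which read higher by 1.28 and 0.87, held no such element. The 250 bases upstream of Rsad2, Ifit1 and Cxcl10 are shown with the element in capitals. Those of the inhibitor gene Socs1, whose readings of 186 and 198 were nearly alike, are shown to set the targets beside the feedback gene. Ifit1 (chr19:34640639-34640888, plus strand) has 2 matches, 104 and 85 bases before the start, Rsad2 (chr12:26456453-26456702, minus strand) has 1 at 120 bases, Cxcl10 (chr5:92348890-92349139, minus strand) has 1 at 213 bases, and Socs1 (chr16:10785537-10785786, minus strand) has 2 overlapping matches at 83 and 77 bases; each is written 5′ to 3′ on the gene's strand.
Ifit1: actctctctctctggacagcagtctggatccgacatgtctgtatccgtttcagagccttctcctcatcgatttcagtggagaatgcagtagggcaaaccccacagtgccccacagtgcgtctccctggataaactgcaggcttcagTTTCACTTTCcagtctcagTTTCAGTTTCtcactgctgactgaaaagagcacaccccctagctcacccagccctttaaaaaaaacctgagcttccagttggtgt
Rsad2: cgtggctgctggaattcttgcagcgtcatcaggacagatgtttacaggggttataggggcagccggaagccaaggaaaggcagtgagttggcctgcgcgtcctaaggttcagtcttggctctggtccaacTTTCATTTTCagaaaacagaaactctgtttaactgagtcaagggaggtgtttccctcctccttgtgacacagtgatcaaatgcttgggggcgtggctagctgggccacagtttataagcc
Cxcl10: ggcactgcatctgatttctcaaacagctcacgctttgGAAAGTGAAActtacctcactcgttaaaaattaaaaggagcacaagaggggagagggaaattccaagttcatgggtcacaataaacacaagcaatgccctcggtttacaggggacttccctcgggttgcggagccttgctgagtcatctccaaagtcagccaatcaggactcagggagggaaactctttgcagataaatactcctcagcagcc
Socs1: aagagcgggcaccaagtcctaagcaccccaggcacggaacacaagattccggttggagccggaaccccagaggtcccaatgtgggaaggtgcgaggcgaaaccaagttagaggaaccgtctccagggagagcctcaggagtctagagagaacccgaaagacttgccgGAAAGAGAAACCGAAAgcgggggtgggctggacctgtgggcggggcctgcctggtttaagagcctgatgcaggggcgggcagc

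**Figure D4:**
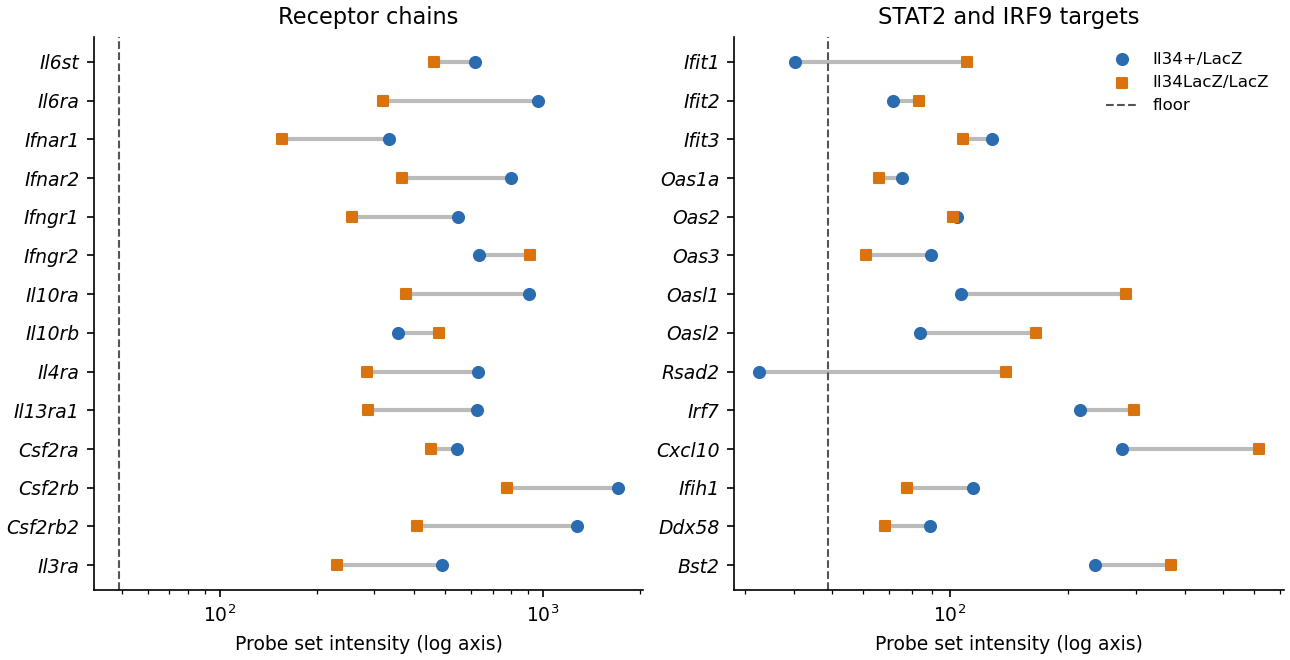
Probe set intensity (log axis) of 14 chains of the gp130, interferon, IL-10, IL-4 and common beta receptors (left) and of STAT2 and IRF9 targets at or above the floor (right) on the Il34+/LacZ array (circles) and the Il34LacZ/LacZ array (squares), 1 array each; the dashed line is the floor of 48.7. Of the 14 chains drawn, picked after their values were seen, Ifngr2 and Il10rb have the square to the right and the other 12 to the left, and among the targets Rsad2, Ifit1, Oasl1, Oasl2 and Cxcl10 have the widest gaps to the right.

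STAT6 targets were mixed. Of 8 that reached the floor, 2 were called higher and 1 lower (25% and 12.5%, beside 16% and 29.9% of all genes). Relative to level 1 was higher and none lower. The median of 0.26 was -0.54 with the floor at the 75th percentile. Ccl17, a chemokine that draws T cells, read 1121 and 2640, 2.34-fold higher, or 1.74 with the trend removed. Stat6 itself read 1.94-fold lower as deposited, but was -0.35 with the trend removed, near the middle of its level. Arg1, the arginase of alternatively activated macrophages, read 48.7 and 90.8, at least 1.65-fold higher from a reading just under the floor. Mgl2, a lectin receptor, read 228 and 135, 1.61-fold lower, Ccl22, the other T cell chemokine of the list, 628 and 426, and Ccl11 35.4 and 58.4. The Ccl17 window held TTCNNNNGAA 154 bases and TTCNNNGAA 99 bases before the start, and that of Socs3 held TTCNNNGAA at 154 bases. These are shown as 30 bases around each match, in capitals, because Ccl17 was the STAT6 target with the largest difference and Socs3 is a feedback inhibitor whose window held the element upstream of the start; the positions in GRCm38.p6 are chr8:94810289-94810318, plus strand, chr8:94810344-94810373, plus strand and chr11:117969501-117969530, minus strand.
Ccl17, longer spacing: cgagtgaccaTTCTCTGGAAagccacaaac
Ccl17, shorter spacing: ttatctcaaaTTCTTTGAAtttctctagtc
Socs3: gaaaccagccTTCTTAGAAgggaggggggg

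The STAT3, STAT5 and STAT4 targets were few, and their counts are to be read beside the 29.9% of all genes called lower and 16% called higher as deposited. Of 11 STAT3 targets, 5 were called lower and 1 higher, and 3 and 2 relative to level. Bcl6, a repressor of transcription, read 556 and 169, 3.10-fold lower, Bcl3, an I-kappa-B family protein, 312 and 97.4, 2.89-fold lower, and Hif1a, the hypoxia factor, 218 and 79.6, 2.45-fold lower. Myc read 700.2 and 367, 1.87-fold lower, and Il1rn, the IL-1 receptor antagonist, 105 and 179, 1.62-fold higher. With the trend removed Myc was -0.28 and Il1rn 1.02. Of 8 STAT5 targets, 3 were lower and none higher, and 1 and none with the trend removed: the survival genes Bcl2 (145 and 69.5) and Bcl2l1 (262 and 138) were 1.89-fold and 1.81-fold lower and the kinase Pim1 (1403 and 789) 1.76-fold lower. Of 6 STAT4 targets, 2 were lower, the factors Hlx at 534 and 259 and Tbx21 at 149 and 81.6, and none passed with the trend removed.

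Over all 150 listed pathway genes outside the members, 118 reached the floor. As deposited 38 of these were called lower and 16 higher (32.2% and 13.6%, beside 29.9% and 16% of all genes). Higher genes were 29.6% of those apart, beside 34.8% over all genes. The share was 14.5% (all genes 19.7%) with each array centred on its median and 51.8% (62.6%) with equal upper quartiles. After quantile normalization it was 52.4% (47.2%). Relative to level 18 were lower and 19 higher, beside 18.6% and 13.9% of all genes. The median of the 118 was then 0.04, beside 0.03 for all genes. The median of the pathway thus lay near that of all genes of like level, while the 3 kinases lay below it and Stat5a above it. With 2 arrays the pattern of any gene is a single difference, so no genes were ranked as being alike.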

How the data were processed

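The deposited values are linear probe set intensities, already processed by the authors; their summarisation, background correction and scaling were not given in the sources used here, and the labels' protocols describe labelled cRNA prepared from 2 ng of RNA. Of 34760 probe sets, 21640 carry 1 symbol in the platform annotation, 1321 several and 11799 none, and a gene was named only through the first kind. RefSeq (GRCm38.p6) listed the gene number of all 9 members under the same symbol. A gene was its probe set with the highest mean. Values were taken as log2(intensity + 16), and the dependence of the difference on level was fitted by loess (fraction 0.3) over those 21640 probe sets; values relative to level, or with the trend removed, are the residuals. Counts at 1.5-fold use these differences; where an array was below the floor (the 50th percentile, 48.7), the printed fold is against the floor and is a lower bound.

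All members were named, with up to 5 genes per pathway list by size of difference and 11 further genes whatever their values. The members and lists were chosen with earlier results of these data known. With 1 array per genotype no test was made, and the number of arrays limits the precision. Alternatives changed the pseudocount, floor, probe set rule, scaling and trend. Python 3.11.15, numpy 2.4.6, pandas 2.3.3 and statsmodels 0.14.6 were used.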

Additional observations from a re-analysis of the deposited data

How the results depend on the processing

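The count of members at least 1.5-fold lower was 5 as deposited and 3 after quantile normalization, and the count higher, none as deposited, was 1 with equal 75th percentiles and 1 after quantile normalization; that gene was Stat5a. With a pseudocount of 64 the pathway genes apart with the trend removed fell from 37 to 24. The cause was not tested. With the trend removed, the counts of 3 lower and 1 higher members were the same in all 11 alternatives except without a floor, where Stat4 made them 4 and 1. Some alternatives could not change them. Each member has 1 probe set, so the mean over probe sets leaves it as it is. Centring each array on its median leaves values with the trend removed unchanged. The median of the members ran from -1.02 to -0.38 as deposited and from -0.35 to -0.18 with the trend removed. Among single genes and lists, 1430 values stayed within the probe set SD of the reported value and 6 moved further, and no gene past 1.5-fold changed sign. No paired analysis was possible because each genotype has 1 array, and for the same reason no replicate could be left out.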
